A study of Mus musculus with 4 samples.

Results

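The genes encoding mitochondrial ribosomal proteins were followed in normal mouse ureter and in ureter tumors. Members were the genes whose symbol starts with Mrpl or Mrps and continues with a number and at most 1 letter, read from array probe sets that the platform annotation assigns to that gene alone. This gave 76 genes on 156 of the array's 45101 probe sets, and all 76 were among the 13046 genes bright enough to be tested. Total RNA came from 2 normal ureter samples and 2 ureter tumor samples of C57Bl/6 mice aged 6 to 8 weeks, each hybridised to 1 Affymetrix Mouse Genome 430 2.0 array, on which sets of short probes read each transcript. The tissue was described as isolated ureter epithelium. The treatment text, the same for all 4 samples, gave R26rtTA;teto-Cre;Ncstnf/f mice, dosed with doxycycline during 1 week starting at 3 weeks old, so that Cre recombinase could inactivate Ncstn, the gene of the gamma-secretase subunit nicastrin. Neither the genotype of each sample nor the animals behind the samples were named, and the R26 locus that carries the doxycycline-dependent activator is active in most cell types. The samples were called biological replicates, so each p-value reflects how far these few samples vary, which may be partly technical. In RNA taken from many cells at once, fewer cells of a type and less RNA per cell cannot be told apart.

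Mitochondria carry their own ribosomes, which translate the few proteins encoded by mitochondrial DNA, all of them core subunits of the respiratory chain and the ATP synthase. The ribosomal RNAs are made inside the organelle, whereas every protein of the small (S) and large (L) mitoribosomal subunit is encoded in the nucleus, made in the cytosol and imported. Some of these proteins descend from bacterial ribosomal proteins and others arose in the mitochondrial lineage. Tissues with dense mitochondria, such as brown fat, muscle and kidney tubule, depend heavily on this machinery.

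Most members had lower signals in the tumors than in the normal ureters, by moderate amounts. The median log2 difference (tumor minus normal, on the log2(signal + 16) scale) was -0.47 over the 76 members, with quartiles of -0.70 and -0.26, against 0.03 over all genes tested. The range ran from -1.33 for Mrps36 to 0.59 for Mrpl33. Of the members, 4 lay at -1 or below, 33 between -1 and -0.5, 31 between -0.5 and 0, and 8 above 0. In all, 68 of 76 members (89.5%) had a difference below 0, where 48.2% of all genes tested did. Both tumor arrays lay below both normal arrays for 56 members (73.7%), against 27.7% of all genes, and above both for 4 members (5.26%), against 29.4% of all genes. A difference of at least 1.5-fold downward was seen in 29 members (38.2%), against 19.6% of all genes.

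No member passed the test by itself. By limma with Benjamini-Hochberg adjustment over the 13046 genes, 0 of 76 members had an adjusted p under 0.05, where 1.43% of all genes did, and the smallest adjusted p of a member was 0.0831, for Mrpl9. At an unadjusted p under 0.05, 24 members (31.6%) were lower, against 10.9% of all genes, and 1 member (1.32%) was higher, against 10.6% of all genes. The standard error had a median of 0.20 log2 units over the members, against 0.32 over all genes, and 25 of the 76 95% confidence intervals left out 0. The smallest p that an exact permutation test can give for 2 samples a group is 0.333.

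**Figure D1:**
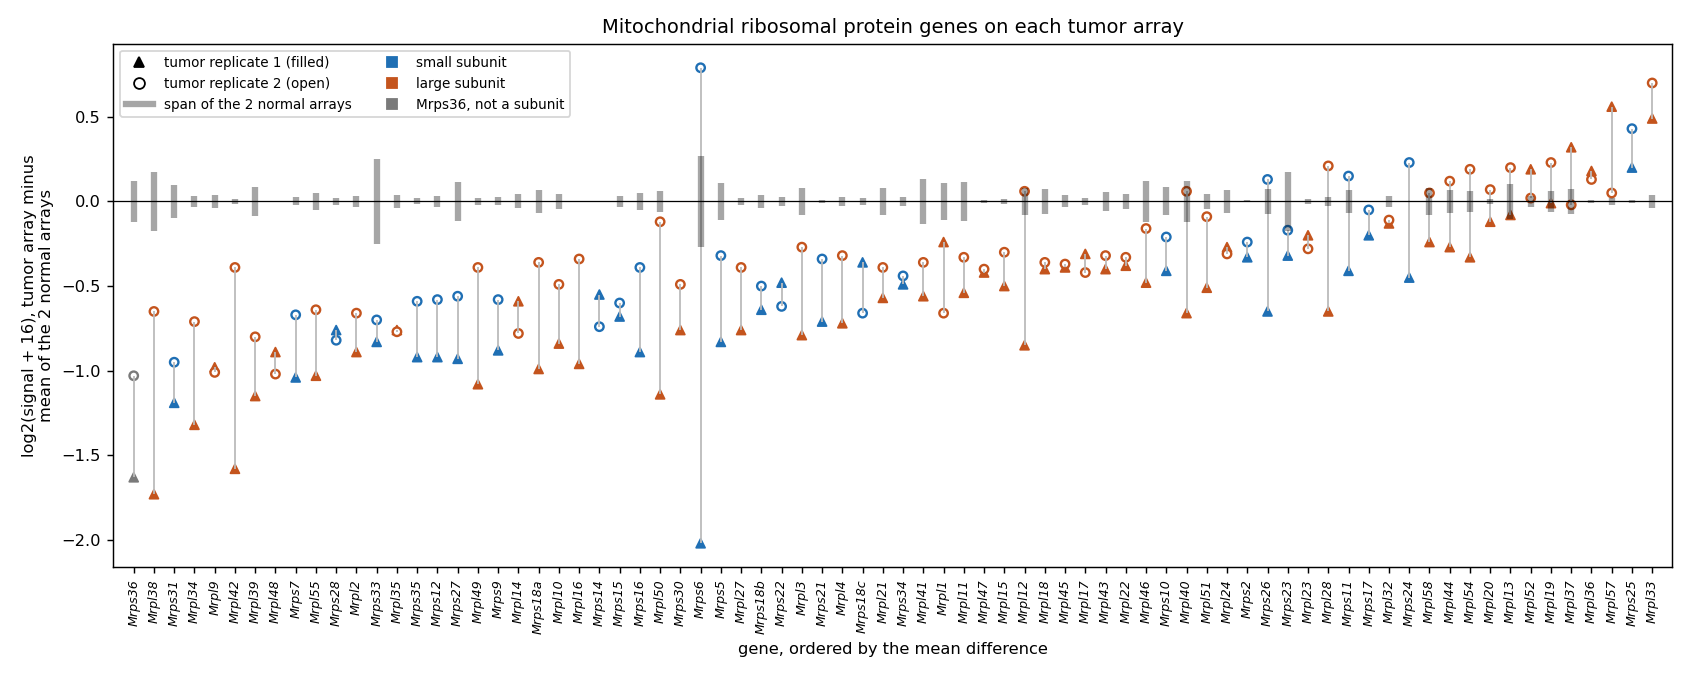
The vertical axis gives each tumor array's log2(signal + 16) minus the mean of the 2 normal arrays for the 76 genes, ordered by their mean difference; filled triangles are tumor replicate 1, open circles are tumor replicate 2, and the grey bar spans the normal arrays. Both points lie below 0 for 57 genes and above 0 for 5, and the points of Mrps6 lie farthest apart, at -2.02 and 0.79.

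Tumor replicate 1 lay farther from the normal arrays than tumor replicate 2. The median over members was -0.58 on the first and -0.35 on the second, and the first was the lower of the pair for 60 members (78.9%), against 48.8% of all genes. Against the mean of the normal arrays, 70 members were lower on tumor replicate 1 and 58 on tumor replicate 2. The normal arrays were close to each other, with a median absolute gap of 0.08 log2 units over the members, while the tumor arrays were 0.28 apart. Over all genes these gaps were wider, at 0.20 and 0.47. The call count depended on which tumor array was kept, and here the lone tumor array is assumed to vary as the normal arrays do. Without tumor replicate 1, 22 members (28.9%) passed the limma test as lower, against 15.5% of all genes, and 2 members (2.63%), Mrps6 and Mrpl33, passed as higher, against 17.4% of all genes. Without tumor replicate 2, 46 members (60.5%) passed as lower, against 21.1% of all genes, and 1 member (1.32%) as higher, against 21.1% of all genes. Without either normal array 0 members and 0 genes in all passed, and 1 and 0 members had an unadjusted p under 0.05.

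The member with the smallest adjusted p was Mrpl9, the counterpart of bacterial ribosomal protein L9, and the one with the highest difference was Mrpl33, the counterpart of bacterial L33. Mrpl9 (probe set 1427297_at) had signals of 3200 and 3041 in the normal ureters and 1576 and 1542 in the tumors. The tumor values were nearly equal to each other and the groups did not overlap. The difference was -0.99 ± 0.16 (SE, n = 2 per group; 95% confidence interval -1.44 to -0.55), or 1.99-fold lower, with a limma adjusted p of 0.0831. Other probe sets of Mrpl9 gave -1.26 (1430976_a_at) and -0.22 (1437749_s_at). The latter had 2015 and 2339 in the normal ureters and 2089 and 1663 in the tumors, so the groups overlapped there. Mrpl33 (1448190_at) had signals of 952 and 899 in the normal ureters and 1305 and 1509 in the tumors. Here both tumors were above both normal ureters. The difference was 0.59 ± 0.19 (SE; 95% confidence interval 0.07 to 1.11), with a limma adjusted p of 0.196, and it was the only higher member with an unadjusted p under 0.05.

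To show what these genes carry at their start, windows from RefSeq (mouse build GRCm38.p6) were taken for Mrpl9 and Mrpl33, for Mrpl12, which binds mitochondrial RNA polymerase, and for the Mrps18 genes, 3 relatives of bacterial S18. Each run below spans 250 bases before to 30 bases after the annotated start and is written 5′ to 3′ along the gene. The capitals mark matches, on either strand, to letters bound by NRF1 (GCGCANGCG), ETS factors such as GABPA (CCGGAAG) or YY1 (AANATGGCG), which are known regulators of nuclear genes for mitochondrial proteins. The windows lie at chr3:94443086-94443365 (plus strand) for Mrpl9, chr5:31613701-31613980 (plus) for Mrpl33, chr11:120484387-120484666 (plus) for Mrpl12, chr17:46110754-46111033 (plus) for Mrps18a, chr17:35916411-35916690 (minus) for Mrps18b and chr5:100798509-100798788 (plus) for Mrps18c.
Mrpl9: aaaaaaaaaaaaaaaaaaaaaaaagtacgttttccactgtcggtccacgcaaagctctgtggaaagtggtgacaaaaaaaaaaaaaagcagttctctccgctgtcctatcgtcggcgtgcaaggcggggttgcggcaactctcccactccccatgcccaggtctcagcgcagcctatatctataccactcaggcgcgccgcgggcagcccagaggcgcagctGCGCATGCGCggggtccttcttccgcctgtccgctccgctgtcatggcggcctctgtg
Mrpl33: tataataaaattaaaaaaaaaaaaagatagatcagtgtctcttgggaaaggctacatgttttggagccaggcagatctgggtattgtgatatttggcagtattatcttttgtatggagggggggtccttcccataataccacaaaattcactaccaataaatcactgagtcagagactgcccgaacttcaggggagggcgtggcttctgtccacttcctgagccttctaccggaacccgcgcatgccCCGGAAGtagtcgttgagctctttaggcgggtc
Mrpl12: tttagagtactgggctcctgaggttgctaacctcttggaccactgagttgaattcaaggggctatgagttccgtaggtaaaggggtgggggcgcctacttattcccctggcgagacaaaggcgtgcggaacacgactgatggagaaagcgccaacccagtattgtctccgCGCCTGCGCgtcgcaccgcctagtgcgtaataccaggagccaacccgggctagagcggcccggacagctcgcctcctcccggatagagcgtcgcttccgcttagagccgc
Mrps18a: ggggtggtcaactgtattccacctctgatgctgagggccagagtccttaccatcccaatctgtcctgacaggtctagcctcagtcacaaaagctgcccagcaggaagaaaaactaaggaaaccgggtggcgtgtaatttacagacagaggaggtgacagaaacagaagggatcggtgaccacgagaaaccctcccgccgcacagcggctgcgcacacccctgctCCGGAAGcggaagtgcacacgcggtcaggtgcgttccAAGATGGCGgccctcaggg
Mrps18b: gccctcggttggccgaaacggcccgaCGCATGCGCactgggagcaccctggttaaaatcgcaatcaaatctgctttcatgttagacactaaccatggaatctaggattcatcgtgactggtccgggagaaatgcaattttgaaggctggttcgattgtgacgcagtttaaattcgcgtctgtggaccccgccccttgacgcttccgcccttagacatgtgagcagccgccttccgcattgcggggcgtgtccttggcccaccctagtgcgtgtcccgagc
Mrps18c: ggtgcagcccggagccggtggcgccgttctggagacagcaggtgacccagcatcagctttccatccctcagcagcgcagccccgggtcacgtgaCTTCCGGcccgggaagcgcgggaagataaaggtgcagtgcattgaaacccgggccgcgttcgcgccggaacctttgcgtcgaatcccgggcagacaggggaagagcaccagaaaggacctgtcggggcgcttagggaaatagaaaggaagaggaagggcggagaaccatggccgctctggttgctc
Mrpl9, lower in the tumors, held 2 overlapping NRF1 matches, 1 on each strand, which begin 28 and 27 bases before the start. Mrpl33, higher in the tumors, held an ETS match that begins 3 bases before the start. Among the Mrps18 genes, Mrps18a held an ETS match 26 bases before the start and a YY1 match from base 12 after it. Mrps18b held an NRF1 match 224 bases before the start, and an ETS match downstream of the stretch printed here but within the longer window searched. Mrps18c held an ETS match 156 bases before the start, so all 3 held the ETS letters.

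Over the 67 members with a window of 300 bases in RefSeq, these letters were found more often than over all genes. The NRF1 letters were in 15 members (22.4%), against 9.63% of 17491 protein-coding genes, the ETS letters in 25 (37.3%), against 12.9%, and the YY1 letters in 11 (16.4%), against 3.64%. Any of the 3 motifs was in 41 members (61.2%), against 22.7% of all genes. The ETS and YY1 letters can overlap, and a gene was counted under each motif it held. The median GC content of the windows was 58.7% for members and 56.3% for all genes. The median tumor difference was -0.39 in the 15 members with the NRF1 letters and -0.50 in the 52 without. For the ETS letters the medians were -0.51 (25 members) and -0.46 (42 members), and for the YY1 letters -0.58 (11) and -0.47 (56). A match describes letters in the window, not binding, and its relation to the differences was not tested.

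**Figure D2:**
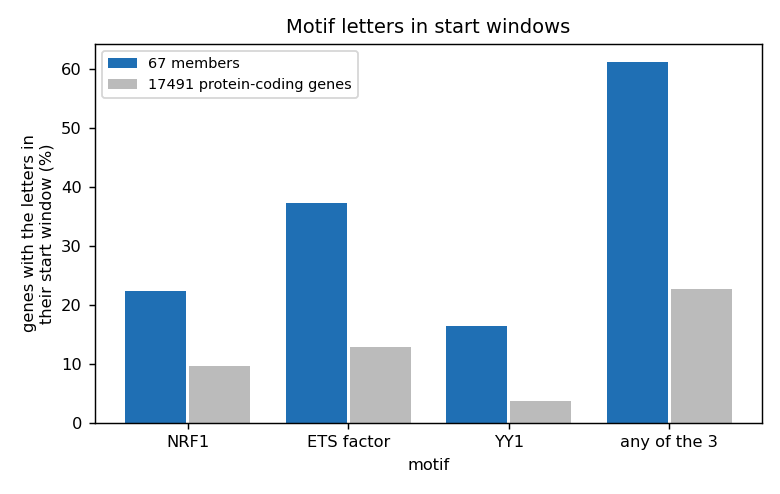
Bars give the percentage of genes whose 300-base start window holds the NRF1, ETS factor or YY1 letters, or any of the 3, for the 67 members (blue) and 17491 protein-coding genes (grey). The member bars reach 22.4%, 37.3%, 16.4% and 61.2%, each above its grey bar.

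Members of the small subunit, which holds the decoding site, had a median difference of -0.57 over 26 genes, and 25 of them lay below 0. Both tumor arrays were below both normal arrays in 76.9% of them. The 16 with a bacterial counterpart all had differences below 0, with a median of -0.60, and the 10 classed as specific to mitochondria had a median of -0.56, with 9 below 0. That class follows the naming of ribosomal proteins and includes Mrps18b, although it descends from a bacterial protein. Mrps31, a mitochondria-specific protein known as an islet autoantigen, had signals of 1206 and 1050 in normal ureters and 482 and 576 in tumors. Its groups did not overlap, and the difference was -1.07 ± 0.22 (SE; limma adjusted p = 0.112). Mrps12, the counterpart of bacterial S12 at the decoding site, had signals of 2158 and 2252 against 1160.0 and 1466 in the tumors. Both tumors were lower, with a difference of -0.75 ± 0.20 (SE; adjusted p = 0.162).

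The other small subunit members chosen for description showed smaller or less even differences. Mrps5, the counterpart of bacterial S5, a protein tied to the accuracy of translation, had signals of 765 and 896 against 458 and 658 (difference -0.58 ± 0.27; limma adjusted p = 0.315). Both tumors were lower there. Mrps23 had signals of 815 and 1041 in normal ureters and 735 and 816 in tumors, with a difference of -0.24 ± 0.23 (adjusted p = 0.577). Here tumor replicate 2 was level with normal replicate 1. Mrps25 was the only small subunit member with a difference above 0. Its signals were 873 and 882 against 1009 and 1183, so that both tumors were higher, and the difference was 0.31 ± 0.19 (adjusted p = 0.422).

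The Mrps18 genes all descend from bacterial S18 but their proteins have different places: those of Mrps18b and Mrps18c in the small subunit, and that of Mrps18a in the large one. Signals of Mrps18a were 2548 and 2801 in normal ureters and 1338 and 2081 in tumors (difference -0.67 ± 0.28; limma adjusted p = 0.271). Those of Mrps18b were 1295 and 1367 against 846 and 937 (-0.57 ± 0.18; adjusted p = 0.197). Those of Mrps18c were 3439 and 3541 against 2719.9 and 2204 (-0.51 ± 0.19; adjusted p = 0.243). In each of the 3 both tumors were lower, and Mrps18c was among the fewer members in which tumor replicate 2 was the lower tumor array. Mrps30, another S-named protein seated in the large subunit, had signals of 1105 and 1111 against 648 and 783 (-0.63 ± 0.20; adjusted p = 0.20), again with both tumors lower.

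Mrps36 had the most negative difference of all 76 members, but its protein is known as a subunit of the oxoglutarate dehydrogenase complex of the citric acid cycle and not of the ribosome. Its signals were 2714 and 3216 in normal ureters and 945 and 1434 in tumors. The groups did not overlap, and the difference was -1.33 ± 0.28 (SE; 95% confidence interval -2.09 to -0.57), or 2.52-fold lower, with a limma adjusted p of 0.117. The median over the other 75 members was -0.47 as well.

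Mrps6 was the least even member, and its locus is shared with another gene. Mrps6 encodes the counterpart of bacterial S6, and its RefSeq span overlaps that of Slc5a3, the gene of a myo-inositol transporter that protects kidney cells from osmotic stress. Mrps6 (1447585_s_at) had signals of 5591 and 3839 in normal ureters, 1134 in tumor replicate 1 and 8019 in tumor replicate 2. The tumor arrays lay on opposite sides of the normal ones and differed 6.99-fold, so the mean difference of -0.61 ± 1.01 (SE; limma adjusted p = 0.766) describes neither. Its other probe set (1424440_at) gave 2647 and 2414 against 591 and 3556, a 5.88-fold gap between the tumors. The Slc5a3 probe set 1435484_at showed the same order, with 5803 and 3728 in normal ureters, 899 in tumor replicate 1 and 11177 in tumor replicate 2. A second, 1440227_at, gave 953 and 670 against 163 and 1410.5. The platform annotation did not assign these probe sets to both genes, and how far each reads the other's transcripts was not tested. The median over members without Mrps6 was -0.47. In all, 19 members have a RefSeq span that overlaps another protein-coding gene.

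**Figure D3:**
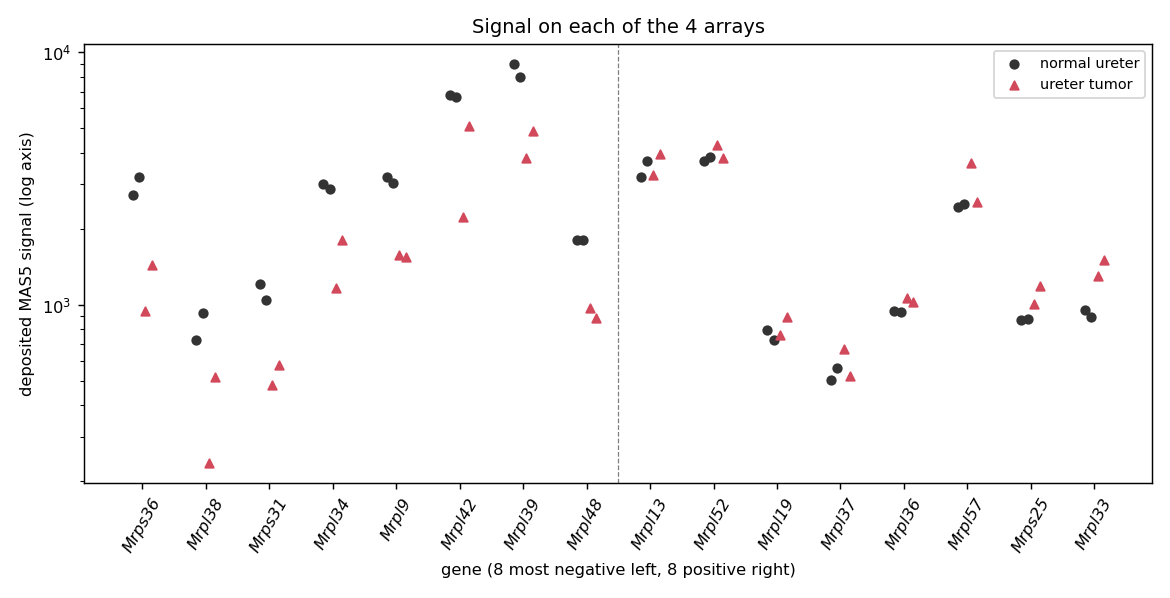
Points give the deposited MAS5 signal (log axis) of the 8 members with the most negative differences, left of the dashed line, and the 8 with positive ones, right of it, for 2 normal ureters (black circles) and 2 ureter tumors (red triangles; replicate 1 drawn first). On the left no tumor value reaches a normal one, as in Mrpl48 at 973 and 889 against 1813 and 1814; on the right only Mrpl36, Mrpl57, Mrps25 and Mrpl33 have both tumors above both normal ureters.

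In the large subunit, which joins amino acids and holds the exit tunnel, the median was -0.40 over 49 genes, with 42 below 0 and 7 above. Both tumors were below both normal ureters in 71.4% of them. The 29 L-named members with a bacterial counterpart had a median of -0.41, and the 18 classed as specific to mitochondria had one of -0.34. Whether the subunits differ from each other was not tested. Over both subunits, the 45 members classed as counterparts of a bacterial protein and the other 30, with Mrps18a and Mrps18b among them, had medians of -0.48 and -0.47.

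Several large subunit members classed as specific to mitochondria were among the lowest. Mrpl38, a protein of the central protuberance with a fold related to phosphatidylethanolamine-binding proteins, had signals of 726 and 932 in normal ureters and 236 and 518 in tumors. Both tumors were lower but far apart, and the difference was -1.19 ± 0.45 (SE; 95% confidence interval -2.42 to 0.03; limma adjusted p = 0.241). Mrpl42 had signals of 6783 and 6638 against 2229.6 and 5132 (-0.98 ± 0.45; adjusted p = 0.303). Mrpl39, a protein related to threonyl-tRNA synthetases, had 9004 and 7973 against 3809.8 and 4867 (-0.97 ± 0.21; adjusted p = 0.125). Both tumors were lower in each, and the tumor values of Mrpl42 stood farther apart than those of Mrpl39. Mrpl48, like Mrpl38 a protein of the central protuberance, had 1813 and 1814 against 973 and 889 (-0.95 ± 0.17; adjusted p = 0.0986). Here tumor replicate 2 was slightly the lower, and the tumor arrays were close. Other tested probe sets of Mrpl48 gave smaller differences, -0.37 (1437997_x_at, 1191 and 1258 against 934 and 954) and -0.68 (1442016_at). Those of Mrpl38 gave -0.38 and -0.62, and that of Mrpl39 gave -0.97. Among members with a bacterial counterpart, Mrpl34 had 3019 and 2887 against 1170.5 and 1802, with both tumors lower (-1.02 ± 0.27; adjusted p = 0.159).

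In other large subunit members tumor replicate 1 stood well below tumor replicate 2. Mrpl12 forms the flexible stalk that calls translation factors to the ribosome. It had signals of 4671 and 5214 in normal ureters, 2736 in tumor replicate 1 and 5137 in tumor replicate 2, which lay within the normal range (difference -0.39 ± 0.36; limma adjusted p = 0.573). Mrpl28 had 1686 and 1622 against 1048 and 1909.6 (-0.22 ± 0.34; adjusted p = 0.747), with the tumors on either side of the normal ureters. Mrpl50 had 1350.3 and 1241 against 579.9 and 1190.4 (-0.63 ± 0.40; adjusted p = 0.428), where tumor replicate 2 was close below the normal values. In Mrpl51, 1 of the 3 members with the highest mean signal, the values were 6229 and 6631 against 4509 and 6033 (-0.30 ± 0.22; adjusted p = 0.491). Mrpl41, which also binds the apoptosis regulator Bcl2, was lower in both tumors, at 4309 and 3569 against 2650.5 and 3042 (-0.46 ± 0.20; adjusted p = 0.282).

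A further set of large subunit members had nearly equal signals in both groups. Mrpl20, the counterpart of a bacterial assembly protein, had 2065 and 2025 in normal ureters and 1883 and 2149 in tumors, with a difference of -0.02 ± 0.17 and a 95% confidence interval whose upper end was 0.46. Mrpl54 had 881 and 959.6 against 727 and 1051 (-0.07 ± 0.26). Mrpl44, which carries a ribonuclease III-like domain, had 2312 and 2098 against 1818 and 2398 (-0.08 ± 0.22). In all 3 the tumors lay on either side of the normal ureters, and under centring on the array median, a scaling that moved the median of all genes from 0.03 to 0.22, the differences became 0.17, 0.12 and 0.12. Mrpl13 had 3212 and 3719 against 3273 and 3971 (0.06 ± 0.20), and Mrpl52 had 3703 and 3862 against 4306 and 3831 (0.10 ± 0.17). Their groups overlapped too. Mrpl19 had 796 and 727 against 757 and 897 (0.11 ± 0.21), and Mrpl37 had 504 and 560.1 against 669 and 524 (0.15 ± 0.24), with overlap in both. The limma adjusted p of these 7 ran from 0.755 to 0.954.

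Besides Mrpl33 and Mrps25, 2 more members had both tumors above both normal ureters. Mrpl36, the counterpart of the small bacterial protein L36, had 948 and 934 in normal ureters and 1068 and 1031 in tumors (0.15 ± 0.18; limma adjusted p = 0.659). Mrpl57 had 2432 and 2511 against 3642 and 2563 (0.30 ± 0.24; adjusted p = 0.514), with tumor replicate 2 just above the normal values. Neither difference was larger than 2 of its standard errors.

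The remaining 42 members, not given singly, all had differences below 0, from -0.86 for Mrps7 to -0.10 for Mrpl58, which encodes a peptidyl-tRNA hydrolase built into the large subunit. In 5 of them, Mrpl40, Mrps26, Mrps11, Mrps24 and Mrpl58, at least 1 tumor array was not below both normal arrays. Under centring on the array median 60 of the 76 members stayed below 0, and 8 changed sign (Mrpl20, Mrpl32, Mrpl44, Mrpl54, Mrpl58, Mrps11, Mrps17 and Mrps24). Relative to the median of all genes, the member median was -0.50 in the deposited scaling and -0.55 after quantile normalization, with 68 members below the all-gene median each time. Centring moves every gene by the same amount, so these relative values cannot change under it and are no separate check.

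Of the 76 genes, 42 had more than 1 probe set, up to 8. Among the 56 second probe sets bright enough to be tested, 43 had a difference below 0 and 13 above. In 9 genes a second probe set pointed the other way from the one used. In Mrpl1, a protein of the mobile stalk beside the exit site, the set used (1450948_a_at) had 457 and 391 against 356 and 262 (-0.45), and the other (1423351_at) had 283 and 271 against 284 and 396 (0.26). Mrpl15 had 2458 and 2400.5 against 1712 and 1965 (-0.40; limma adjusted p = 0.289) in the set used and -0.51, -0.30 and -0.47 in 3 others. The other 3 of its tested sets, all dim, gave 1.01, 0.12 and 0.20. For Mrpl50 the second set gave 0.02, for Mrps23 another gave 0.38 and for Mrps5 a second gave 0.24.

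The higher members were affected in the same way. In Mrps25 the brightest set gave 0.31 while 2 dimmer ones gave -0.27 and -0.53, and in Mrpl57 they gave 0.30 and -0.36. Mrpl19 gave 0.11, 0.42 and -0.15, and Mrpl44 gave -0.08, 0.01, -0.30 and -0.61. Of the 76 sets used, 32 have names, ending in _a_at, _s_at or _x_at, that mark probes shared with other transcripts. These can be transcripts of the same gene. When a gene's probe sets were averaged, Mrpl33 gave -0.06, its second set being below the brightness filter at signals of 47.8 and 78.3 against 19.8 and 46.4.

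Genes that work beside the members were also mostly below 0, and none of them passed the limma test. Of the mitoribosome proteins whose symbols do not follow the Mrp pattern, all 4 tested had differences below 0, with a median of -0.68 and 2 at an unadjusted p under 0.05. At that level 10.9% of all genes were lower. Gadd45gip1, which encodes a large subunit protein, had 819 and 904 in normal ureters and 270.2 and 377 in tumors (-1.39 ± 0.27; limma adjusted p = 0.104). Both tumors were well below. Ptcd3 had 1579 and 1372 against 711 and 831 (-0.92; adjusted p = 0.125), and Dap3, a GTP-binding protein of the small subunit, had 3140.4 and 2928 against 2137 and 2359 (-0.43; adjusted p = 0.258).

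Among 24 tested genes for mitoribosome assembly, 21 were below 0 (median -0.35), and at an unadjusted p under 0.05 there were 4 lower and 1 higher. For each list here, the shares of all genes at that level were 10.9% lower and 10.6% higher. Whether any list differs from these shares was not tested. The assembly GTPases Mtg1 and Mtg2 had differences of -1.02 (adjusted p = 0.154, limma) and -1.03 (0.161), while Trub2, a pseudouridine synthase homologue, stood at 0.83 with signals of 354 and 349 against 557 and 729 (0.181). Of 16 translation factors, 13 were below 0 (median -0.39), with 1 lower at an unadjusted p under 0.05. Mrrf, which recycles the ribosome, had a difference of -0.81, the elongation factor Gfm1 -0.92 and Slirp, which stabilises mitochondrial messenger RNA, -0.41. Of 14 mitochondrial aminoacyl-tRNA synthetases, 13 were below 0 (median -0.46), again with 1 at that level, and Rars2 stood at -0.89, Fars2 at -0.79 and Iars2 at -0.82. Of 10 genes that copy or transcribe mitochondrial DNA, 8 were below 0 (median -0.42), 3 of them at that level. They include the transcription factor Tfb2m (-0.57), the nuclease Mgme1 (-0.83) and the polymerase Polg (-0.53).

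Regulators of mitochondrial gene programs did not share a direction. Of 8 tested, 4 were below 0 and 4 above, with a median of -0.07, and 1 in each direction had an unadjusted p under 0.05. Over all genes 10.9% were lower and 10.6% higher at that level. Myc, a growth regulator, had signals of 324 and 268 in normal ureters and 827 and 781 in tumors (1.40 ± 0.23; limma adjusted p = 0.0843). Both tumors were higher. Ppargc1b, a coactivator of mitochondrial genes, had 2388 and 1918 against 521 and 1022 (-1.53 ± 0.39; adjusted p = 0.150), with both tumors lower. Its relative Pprc1 had 322 and 286 against 807 and 459 (0.97 ± 0.36; adjusted p = 0.237), with both tumors higher.

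For scale, the same fit was read for complex I of the respiratory chain, which contains products of mitoribosomes, and for the ribosome of the cytosol. The median over 33 nuclear complex I genes was -1.11, with 32 below 0 and both tumors below both normal ureters in 93.9%. The median over 43 cytosolic ribosomal protein genes was -0.09, with 31 below 0 and both tumors below in 9.30%. No gene of either list passed the limma test, while at an unadjusted p under 0.05 complex I had 23 lower and 1 higher and the cytosolic ribosome 1 lower. Over all genes 10.9% were lower and 10.6% higher at that level. The members' median of -0.47 lay between these, and the differences between the lists were not tested.

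**Figure D4:**
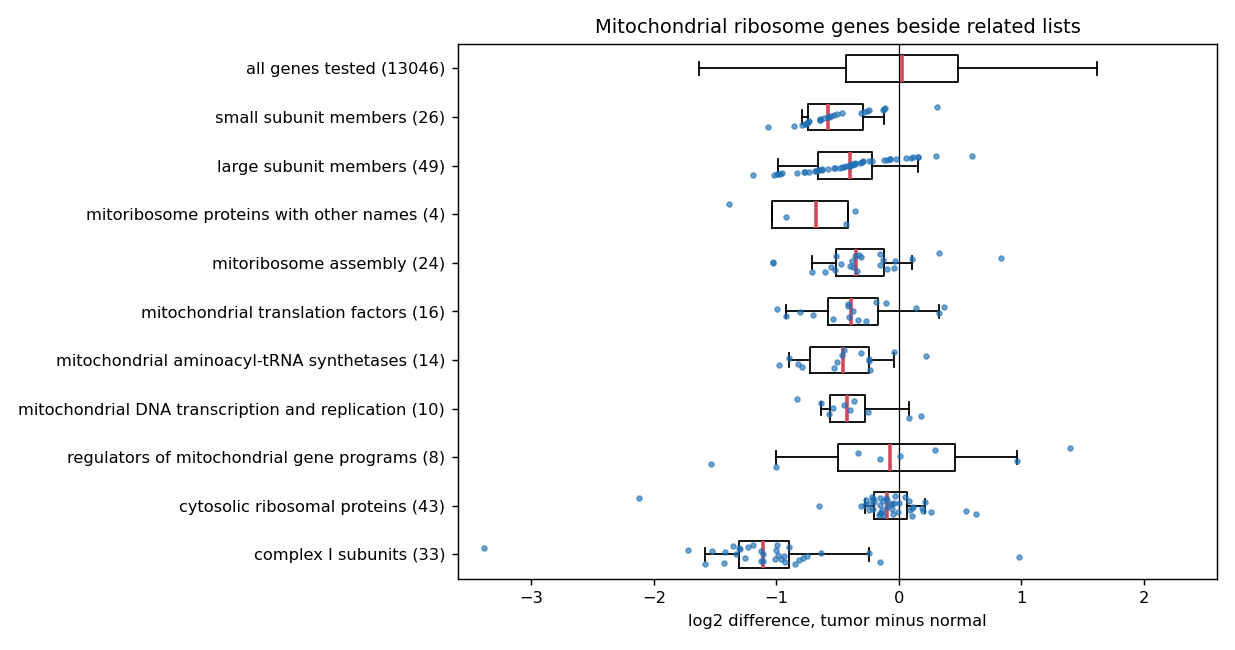
Each row shows the log2 difference (tumor minus normal) of the genes in 1 list, with the number tested in brackets. Boxes span the quartiles, the red line is the median, and whiskers run out to a low and a high percentile of each list. Points are single genes, which are not drawn for all genes. Medians are -0.57 and -0.40 for the subunits, -1.11 for complex I, -0.09 for the cytosolic ribosome and 0.03 for all genes.

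Although the tissue was described as isolated ureter epithelium, markers of other cell types gave signal and moved with the groups. The part of these markers in the members' differences was not tested. Markers of brown fat, a tissue dense in mitochondria, summed to 100409 and 91837 in the normal ureters and to 3376 and 2287 in the tumors, 33.9-fold higher on average in the normal ureters. By limma, 4 of the 9 tested fell, and 7 in all had differences below 0 and 2 above. Ucp1, which defines brown fat, had 19660.3 and 21580 against 3.15 and 3.41 (adjusted p = 0.00863), so it was at background in both tumors. Cidea had 33091 and 27503 against 138 and 1.69 (adjusted p = 0.0542). The 2 above 0 were Dio2, with 861 and 1006 against 2354 and 609.7 (0.36), and Prdm16, with 594 and 503 against 553 and 731 (0.21), both overlapping between groups. Markers of fat in general summed to 316549 and 330911 against 48655 and 16646, and those of smooth muscle to 49967 and 39329 against 12800.2 and 20428.

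Uroplakins, which define the differentiated urothelium, had lower signals in both tumors than in the normal ureters, while basal markers differed between the tumors. Upk3a had 5987 and 11462 in the normal ureters and 69.8 and 52.3 in the tumors (limma adjusted p = 0.0369). Upk2 had 528 and 919 against 148 and 39.2 (adjusted p = 0.130), and Upk1a had 316 and 693 against 25.7 and 102 (0.150). Krt5, a keratin of basal cells, had 3415 and 5518 in the normal ureters, 15779.7 in tumor replicate 1 and 628 in tumor replicate 2, and the basal transcription factor Trp63 had 2446 and 3847, then 10167 and 440.3. Both were highest in tumor replicate 1 and lowest in tumor replicate 2. The full list of 12 urothelial markers summed to 45565 and 76193 against 39186 and 5028, and 4 of 12 fell. Of immune markers, 4 of 8 for macrophages rose, with sums of 10185 and 8702 against 44916 and 36895, and plasma cell markers summed to 26817 and 26186 against 98595 and 61844 with 1 of 7 risen. Markers of dividing cells summed to 1072 and 1041 against 9925 and 3936, and 0 of 10 passed the limma test. At an unadjusted p under 0.05, 9 were higher, where 10.6% of all genes were.

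The tumors also differed from each other in marker content. Kidney tubule markers, from another tissue dense in mitochondria, summed to 32128 and 62617 in the normal ureters, 1587 in tumor replicate 1 and 159948 in tumor replicate 2. Mast cell markers summed to 801 and 668, then to 106246 in tumor replicate 1 and 686 in tumor replicate 2. Striated muscle markers had low sums on every array, but lower ones in the tumors, at 957 and 775 against 477 and 287. All 4 tested had differences below 0, with a median of -1.18, and 0 passed the limma test. The members themselves summed to 178067 and 179686 in the normal ureters and 117377 and 146326 in the tumors, a ratio of 0.737. The ratio of Gapdh signal from the 3′ to the 5′ end, a measure of RNA integrity, was 0.920 and 0.923 in the normal ureters and 1.51 and 1.44 in the tumors. For Actb the ratios were 2.90 and 2.82 against 2.47 and 2.63. Marker content, RNA integrity and group cannot be told apart with these samples.

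**Figure D5:**
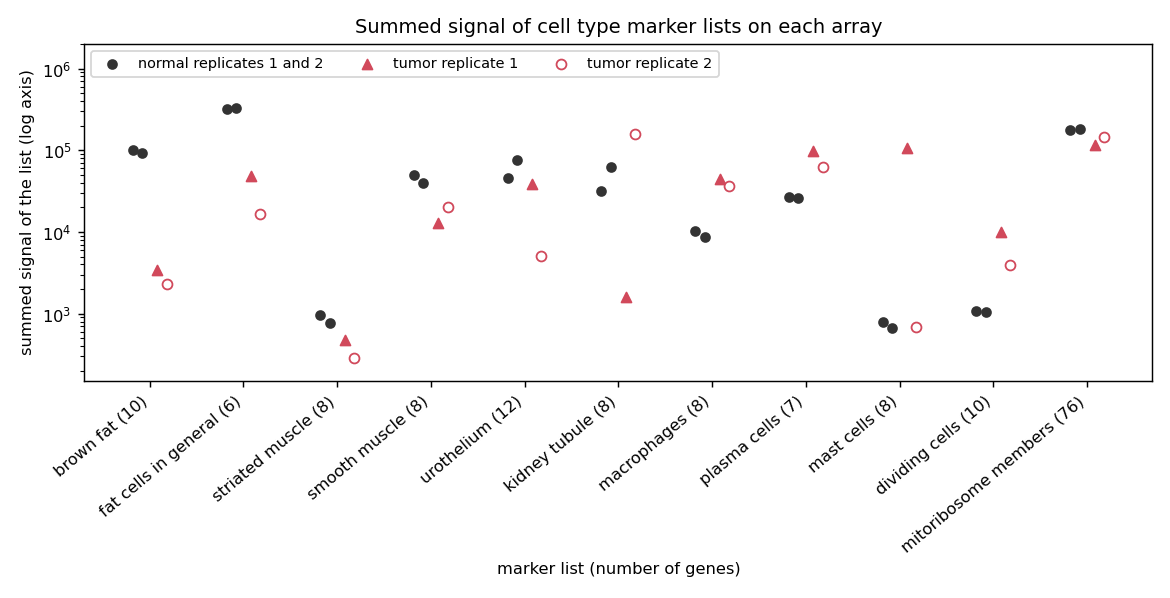
Points give the summed deposited signal (log axis) of each marker list on each array, with the number of genes in brackets; black circles are the 2 normal ureters, filled triangles tumor replicate 1 and open circles tumor replicate 2. Brown fat markers are far higher in the normal ureters (100409 and 91837 against 3376 and 2287), kidney tubule markers are highest in tumor replicate 2 and mast cell markers in tumor replicate 1.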

How the data were processed

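Total RNA was measured on 4 one-colour arrays, prepared from 6 ug of RNA each. The authors deposited 1 table of linear intensity, a signal for each probe set. Per the submitters' processing notes MAS5 produced it (version not given in the sources used here). After MAS5, the deposited intensity values had a mean of 500 on each array after trimming 2% at each end, so every signal is relative to its array. The normal arrays had median signals of 106.7 and 102.9, the tumor arrays of 85.03 and 94.2. Precision is limited by the small number of arrays.

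Of 45101 probe sets, 64 controls were left out, 34945 had 1 gene symbol in the platform annotation, 932 had several and 9160 had none. For 34741 the symbol was found in a newer gene table, and 0 changed. Another 4 probe sets that name a member beside another gene were not used. For each gene the brightest of its single-gene probe sets was used, by mean log2(signal + 16), and the 13046 genes at or above the 40th percentile (a signal of 54.65) were tested. Fold changes on this scale understate those of dim genes. Tumor was compared with normal by limma 3.58.1 in R 4.3.3, two-sided, with an intensity trend, 2 residual and 2.11 prior degrees of freedom and Benjamini-Hochberg adjustment at 0.05. The procedure was tested on simulated data, in bright genes with changes much larger than the members' differences. How it performs at differences of the members' size was not tested. Promoter windows were those of RefSeq, searched on both strands. Figures were drawn with matplotlib 3.10.9.

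The members and gene lists were chosen with earlier results of these data known. Members given with every array's value are those past the threshold, the 8 most positive and 8 most negative, the 3 with the highest mean, the 4 nearest 0, the 5 whose tumor arrays differ most, those whose probe sets disagree, and Mrps12, Mrpl12, Mrpl28, Mrpl41, Mrps18a, Mrps18b, Mrps18c, Mrps30 and Mrps36. From each pathway list the 3 genes with the smallest p are given. Krt5, Trp63, Dio2, Prdm16 and Slc5a3 were named after their values were seen. As alternatives, each array was left out, the replicate number was used as a block, probe sets were averaged, all kept or limited to names without shared probes, pseudocounts were 1 or 64, scaling was by quantiles or centring, the filter was dropped or set at the 60th percentile, and the trend was dropped or made robust.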

Additional observations from a re-analysis of the deposited data

How the results depend on the processing

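Under every alternative that kept all 4 arrays, 0 members passed the limma test, and their median stayed between -0.51 and -0.28, the latter after centring. Over all genes (64 higher and 123 lower) the calls were 10 and 25 after centring, 28 and 76 with averaged probe sets, 114 and 243 with every probe set, and 1 and 1 without the trend; the cause was not tested. Leaving out 1 array gave 0 to 2749 higher and 0 to 2753 lower calls, among members 0 to 2 and 0 to 46, and member medians of -0.58 to -0.35. The replicate numbers could not be shown to pair samples (correlation of same-numbered deviations 0.0391, with 2 pairs); with the replicate block 0 genes were called higher and 0 lower, and 15 members had an unadjusted p under 0.05 against 25.

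Among members described singly, signs reversed after centring for Mrpl44 (0.12), Mrpl54 (0.12) and Mrpl20 (0.17), with averaged probe sets for Mrpl54 (0.40), Mrpl52 (-0.01), Mrpl19 (-0.21), Mrpl57 (-0.03), Mrps25 (-0.16) and Mrpl33 (-0.06), and without shared-probe sets for Mrpl1 (0.26), Mrpl15 (0.12) and Mrpl19 (-0.15). Of the same members, leaving out an array gave ranges across 0 for Mrps6 (-2.02 to 0.79), Mrpl12 (-0.85 to 0.06), Mrpl28 (-0.65 to 0.21), Mrpl44 (-0.27 to 0.12), Mrpl54 (-0.33 to 0.19), Mrpl20 (-0.12 to 0.07), Mrpl13 (-0.08 to 0.20), Mrpl19 (-0.01 to 0.23) and Mrpl37 (-0.02 to 0.32).

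Pathway medians moved after centring to -0.48 (other-named mitoribosome proteins), -0.23 (mitochondrial DNA) and 0.12 (regulators), to -0.40 with averaged probe sets (other-named) and to -0.27 with every probe set (regulators). Marker medians moved to -4.74 and -3.38 (brown fat), 2.98 and 1.22 (plasma cells) and 2.70 and 1.49 (dividing cells) with pseudocounts of 1 and 64. They moved at the 60th percentile to -2.33 (smooth muscle), 2.98 (plasma cells) and 2.71 (dividing cells), with averaged probe sets to -1.44 (smooth muscle), with every probe set to -2.72 (brown fat) and 0.83 (plasma cells), and without shared-probe sets to -2.26 (smooth muscle), 3.31 (plasma cells) and 5.24 (mast cells). With 1 array left out the pathway medians ran from -0.78 to -0.59 (other-named, 0 to 4 calls), -0.48 to -0.17 (assembly, 0 to 7), -0.50 to -0.21 (translation factors, 0 to 8), -0.73 to -0.14 (synthetases, 0 to 6), -0.59 to -0.39 (mitochondrial DNA, 0 to 4) and -0.12 to 0.17 (regulators, 0 to 6). The marker medians ran from -4.26 to -3.34 (brown fat), -6.31 to -3.0 (fat), -1.63 to -0.64 (striated muscle), -2.02 to -1.59 (smooth muscle), -3.80 to -2.44 (urothelium), -4.82 to 2.00 (kidney tubule), 1.89 to 2.28 (macrophages), 1.3 to 2.85 (plasma cells), -0.25 to 4.48 (mast cells) and 1.77 to 2.57 (dividing cells).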
